A study of Mus musculus with 9 samples.

Results

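CD11b+ cells taken from mouse livers 48 hours after an overdose of acetaminophen (APAP) were profiled by bulk RNA sequencing in the samples titled APAP, the PBS control group that received no vesicles. These were 3 of the 9 samples of the series and were chosen by their title and treatment label alone. Livers were broken down to a cell suspension and the CD11b+ cells were isolated from it without delay, by a method that the sources used here do not name. APAP was given into the peritoneum, and the other samples of the study, which received extracellular vesicles, were not used here. All 9 samples carry the APAP label, so uninjured liver was not analysed here. The strain, age and sex of the mice, the time and route of the PBS dose and the number of livers per sample are not given in the sources used here. The 3 samples are called PBS 1, PBS 2 and PBS 3, and values that follow each other are always in that order. The labels do not say that the samples came from separate mice, so the spread between them may be technical.

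Levels are in TPM (transcripts per 1000000), a measure that corrects for gene length and has the same total in every sample, and errors are standard deviations (SD, n = 3). The samples form 1 group, so no test was made and every statement below is a description. PBS 1 stood apart from the other samples. Among the 6315 genes with a mean of at least 20 TPM, 96.7% were within 1.3-fold of each other in PBS 2 and PBS 3, against 92.1% in PBS 1 and PBS 2 and 87.5% in PBS 1 and PBS 3. For several list sums in which PBS 1 lay apart, the mean without that sample is given beside them.

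Acetaminophen overdose kills hepatocytes around the central veins through a reactive metabolite, and the dead tissue is then cleared and replaced over the following days. CD11b, the integrin alpha M chain, is carried by monocytes, neutrophils and many macrophages. In this injury Ly6C-high monocytes enter through the receptor Ccr2 and turn into macrophages that take up debris, while neutrophils arrive early and Kupffer cells, the resident macrophages of the sinusoids, are partly lost in the damaged zones and recover later.

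The tables listed 45777 gene IDs, and 12770 of them, or 27.9%, reached at least 1 TPM in all 3 samples. Few genes held much of the RNA. The 100 most abundant genes took 29.8%, 29.4% and 30.4% of TPM, and 387, 377 and 354 genes were enough to hold 50% of it. Mitochondrial genes took 6.48%, 5.44% and 6.25% of TPM, lowest in PBS 2, and the 84 ribosomal protein genes took 9.95%, 9.75% and 9.67%. Levels of at least 100 TPM were reached by 1672, 1674 and 1640 genes, and levels of at least 1000 TPM by 156, 159 and 159.

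The most abundant transcript was Lyz2 (chr10:117277541-117282272 in the coordinates of the deposited files), which encodes the lysozyme of phagocytes, at 16454, 17375 and 18038 TPM. After it came Tmsb4x, an actin-binding peptide, at 13612 ± 722 TPM. The ferritin light chain Ftl1 was at 14963, 11881 and 12134 TPM, highest in PBS 1, and the heavy chain Fth1 was at 7089 ± 533 TPM. These ferritin genes have processed pseudogenes that are also in the tables, so the division of reads among them is uncertain. Several genes of the lysosome were among the leading 30 named nuclear genes. Psap, the precursor of the saposins that help to degrade sphingolipids, was at 7264 ± 358 TPM, and the cathepsins Ctss, Ctsd and Ctsb were at 4981 ± 348, 3588 ± 739 and 2819 ± 435 TPM. Ctsb overlaps Fdft1 in the annotation, so part of its signal is uncertain.

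Some genes of immune receptors and antigen-presenting proteins were also in this top group. The adaptors Tyrobp and Fcer1g, which carry signals from activating receptors of myeloid cells, were at 2828 ± 188 and 2312 ± 153 TPM. B2m, the light chain of MHC class I, was at 7996 ± 595 TPM, the class I heavy chain H2-D1 at 2339 ± 251 TPM and the class II invariant chain Cd74 at 2703, 2404 and 1894 TPM. Mpeg1, which encodes the pore-forming perforin-2 of macrophages, was at 2179 ± 229 TPM. Apoe, the lipid carrier that macrophages secrete, was at 4197, 6431 and 5324 TPM and was highest in PBS 2. Zfp36, which encodes tristetraprolin, a protein that destabilises cytokine mRNAs, was at 2013, 2325 and 2840.4 TPM and was highest in PBS 3.

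A pair of monocyte transcripts in the top group varied most. Chil3, the chitinase-like protein Ym1, was at 2537, 4880.1 and 5224 TPM, and Plac8, a small protein of monocytes and other leukocytes, was at 1459.7, 3589 and 3744 TPM. In both, PBS 2 and PBS 3 lay close together and PBS 1 was far below them. The other 28 of the 30 genes differed by less than 2-fold between the highest and lowest sample on the TPM + 1 scale.

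**Figure D1:**
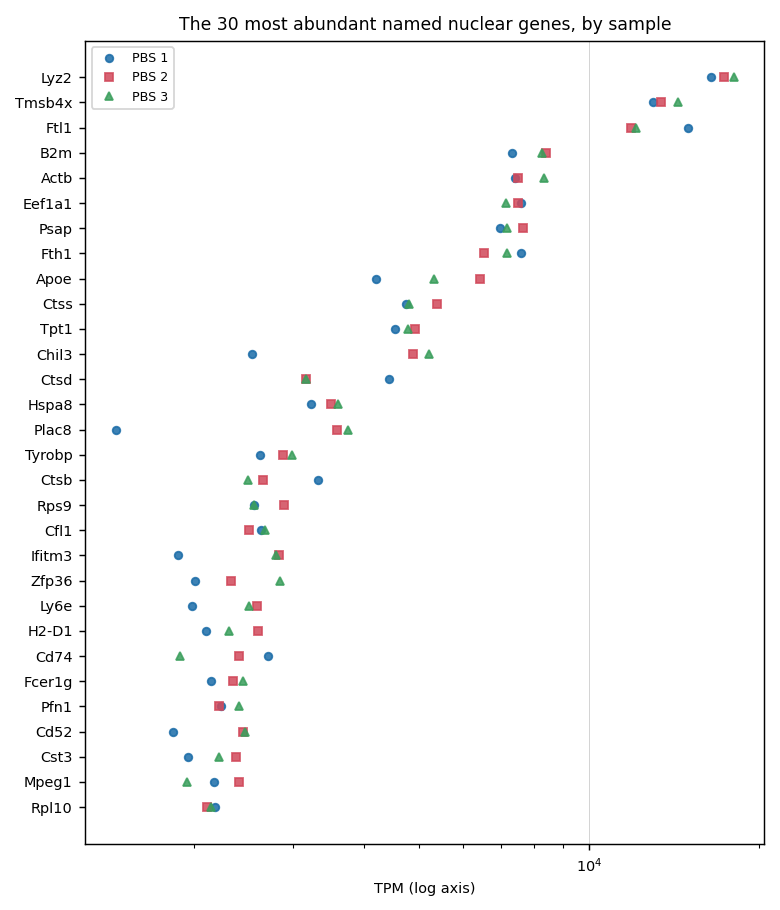
TPM in each of the 3 samples (log axis) for the 30 named nuclear genes of highest mean, in order of the mean, 1 point per sample. Lyz2 leads in every sample, and PBS 1 lies far below the other samples for Chil3 and Plac8.

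The label was checked against CD11b and its partners. Itgam (chr7:128062640-128118491), the gene of CD11b, was at 289, 324 and 377 TPM and ranked 456 of all genes by mean. Itgb2, the beta 2 chain with which CD11b pairs, was at 752, 874 and 837 TPM, so it was 2.60, 2.70 and 2.22 times the level of Itgam. The other alpha chains that use Itgb2 were at 388 ± 40.7 TPM for Itgal (CD11a), 115 ± 12.8 TPM for Itgax (CD11c) and 1.62 ± 0.198 TPM for Itgad (CD11d). Of 14 leukocyte integrin genes, Itgb3 and Itgad were the lowest, and all 14 reached 1 TPM in every sample. The leukocyte gene Ptprc (CD45) was at 585 ± 65.9 TPM, the colony-stimulating factor 1 receptor Csf1r at 1064 ± 106 TPM and Spi1, the transcription factor PU.1, at 526 ± 20.1 TPM. All 15 general myeloid genes of the list were above 100 TPM, the lowest being the lipopolysaccharide co-receptor Cd14 at 176, 184 and 232 TPM. Their sum was 33395 ± 1335 TPM, of which Lyz2 alone made up 51.8%, and it differed by no more than 1.08-fold between samples.

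Genes of Ly6C-high monocytes, the inflammatory monocytes of blood, were abundant, and their sum was the most uneven of the large myeloid groups. Their 14 genes, all at 1 TPM or more, summed to 7120.0, 13244 and 13895 TPM, a mean of 11419.6 ± 3738, which was 13569 without PBS 1. Chil3 alone made up 36.9% of the sum, whose mean was 7206 TPM without it, and Plac8 was the next largest member. The range of the sum thus rests largely on this pair, whose values are given above. In bulk samples such as these, fewer cells of a type and less RNA per cell cannot be told apart. Ly6c2 (chr15:75108161-75112066), a gene of the Ly6C surface antigen, was at 504, 1226 and 1229 TPM. Its close relative Ly6c1 was at 47.7, 112 and 108 TPM, and reads of this pair may have been divided between them. Ms4a4c, a membrane protein of monocytes, was at 384, 809 and 699 TPM. In these genes PBS 1 had the low value and the other samples lay together.

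Not all monocyte genes showed that gap. Ccr2, the receptor by which monocytes leave the marrow and enter tissue, was at 718, 843 and 759 TPM. The transglutaminase F13a1 was at 264, 271 and 309 TPM and fibronectin, Fn1, at 387, 399 and 462 TPM. The haptoglobin gene Hp was at 288, 449.9 and 538 TPM and the proteoglycan Vcan at 40.8, 56.8 and 59.1 TPM. Here too PBS 1 was the lowest sample, but by 1.17-fold to 1.87-fold only.

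Patrolling monocytes, the Ly6C-low cells that crawl along vessel walls, were represented by all 12 listed genes, with a sum of 2569.9, 3251 and 3099.6 TPM. Nr4a1, the nuclear receptor on which these cells depend, was at 699, 894 and 1015 TPM, and is also an immediate early gene. The fractalkine receptor Cx3cr1 was at 298, 296 and 225 TPM, so that Ccr2 was 2.41, 2.85 and 3.37 times as abundant. More restricted markers were also well above 1 TPM, with Treml4 at 211, 265 and 257 TPM, the angiotensin-converting enzyme Ace at 149.6, 261 and 210.3 TPM and Cd300e at 52.8, 67.4 and 54.0 TPM. Adgre4, an adhesion receptor of these monocytes, was at 192, 284 and 225 TPM. PBS 1 was lowest in 11 of the 12 genes, where it was lowest in 22.2% of all genes at 1 TPM or more.

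Kupffer cell genes were all detected. The 15 genes summed to 5650.4, 5145 and 4773 TPM. Clec4f (chr6:83644542-83656116), a lectin that in mice is a defining marker of Kupffer cells, was at 668, 635 and 538 TPM. The secreted scavenger protein Cd5l was the most abundant member at 1457, 1256 and 1027 TPM, and the complement receptor Vsig4 was at 470.5, 433 and 355 TPM. Timd4, the phosphatidylserine receptor of long-lived resident macrophages, was at 96.5, 90.1 and 81.3 TPM, against which the iron exporter Slc40a1 was at 493, 397 and 375 TPM and the F4/80 gene Adgre1 at 449, 418 and 354 TPM. For each of these 6 genes PBS 1 was highest and PBS 3 lowest.

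Other Kupffer genes did not follow that order. The scavenger receptor Marco was at 245, 382 and 466 TPM, with PBS 1 lowest, and the heme oxygenase Hmox1 was at 884, 733 and 911 TPM. Spic, a transcription factor of iron-recycling macrophages, was level at 62.2, 58.9 and 65.1 TPM. Of the 15 genes, 11 were highest in PBS 1 and 11 lowest in PBS 3, where those samples were highest and lowest in 57.1% and 50.7% of all genes at 1 TPM or more. The ratio of the Ly6C-high monocyte sum to the Kupffer sum was 1.26, 2.57 and 2.91, and the ratio of Ly6c2 to Clec4f alone was 0.754, 1.93 and 2.28.

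Lipid-associated macrophages are cells that express Trem2, Gpnmb and Spp1 and handle lipid and debris in injured tissue. All 16 genes of this list were at 1 TPM or more, and their sum of 20851, 17787 and 16711 TPM was led by the lysosomal and lipid genes Apoe, Ctsd and Ctsb, which other macrophages also express. The more restricted members were lower. Trem2, the lipid-sensing receptor, was at 417, 307 and 308 TPM. Spp1, which encodes osteopontin, was at 1702, 732 and 981 TPM, and Gpnmb (chr6:49036518-49058182), a glycoprotein of phagolysosomes, was at 705, 323 and 252 TPM.

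For those 3 genes PBS 1 was clearly above the other samples. The fatty acid carrier Fabp5 was at 394, 146 and 167 TPM, the lipid scavenger receptor Cd36 at 423, 231 and 202 TPM and the lipid droplet coat Plin2 at 868, 564 and 553 TPM, again with PBS 1 highest. The macrophage elastase Mmp12 was at 72.3, 67.6 and 79.5 TPM and the tetraspanin Cd9 at 235, 183 and 236 TPM, without that gap. PBS 1 was the highest sample in 13 of the 16 genes, where it was highest in 57.1% of all genes at 1 TPM or more, and the exceptions were Apoe, Mmp12 and Cd9. The mean of the sum was 18449.9 ± 2148 TPM and was 17249 without PBS 1. The sum of this list over the Ly6C-high monocyte sum was 2.93, 1.34 and 1.20.

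Large peritoneal macrophages, which can enter the liver through its capsule after injury, had few transcripts. Their regulator Gata6 was at 0.529, 0.340 and 0.313 TPM and the 10 genes together at 61.4 ± 11.0 TPM (55.1 without PBS 1), of which the endothelial and macrophage adhesion gene Icam2 made up 58.5%. Prg4 was at 9.87, 1.24 and 1.53 TPM and the lipoxygenase Alox15 at 4.43, 0.235 and 0.276 TPM. In this pair PBS 1 was the only sample above 2 TPM. Prg4 overlaps Tpr in the annotation, so its low signal is uncertain.

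Neutrophil genes were abundant as a sum, but their most specific marker was low. The 15 genes of mature neutrophils summed to 3881, 5021 and 6862 TPM, a mean of 5255 ± 1504, which was 5941 without PBS 1. The calprotectin subunits, which monocytes also make, led with S100a9 (chr3:90692630-90695721) at 1382, 1907 and 2723 TPM and S100a8 at 929, 1350.4 and 1757 TPM. S100a8 was 0.672, 0.708 and 0.645 times S100a9. S100a9 alone made up 38.1% of the list's sum, whose mean was 3251 TPM without it. Ly6g, the antigen by which mouse neutrophils are usually defined, was at 1.38, 2.66 and 3.18 TPM.

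Other neutrophil genes were at intermediate levels. The granulocyte colony-stimulating factor receptor Csf3r was at 439, 474 and 519.7 TPM and the chemokine receptor Cxcr2, which draws neutrophils to Cxcl1 and Cxcl2, was at 77.1, 93.6 and 124 TPM. The gelatinase Mmp9 was at 95.9, 122 and 157 TPM and the collagenase Mmp8 at 80.1, 82.2 and 119 TPM. Retnlg, a resistin-like protein of neutrophils, was at 101, 166 and 317 TPM, the widest range of the list's genes at 20 TPM or more. All 15 genes were highest in PBS 3, where 19.4% of all genes at 1 TPM or more were. In PBS 1, 13 of the 15 were lowest, against 22.2% of all genes at 1 TPM or more. The sum over the Kupffer sum was 0.687, 0.976 and 1.44, a ratio led by the calprotectin genes that monocytes share.

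Genes of immature neutrophils were low except for Lcn2, which made up 74.9% of the sum of that list. The sum was 94.8, 204 and 292 TPM, a 3.08-fold range, and its mean was 49.3 TPM without Lcn2. All 8 genes of the list at 1 TPM or more were lowest in PBS 1 and 7 were highest in PBS 3. The shares of all genes at 1 TPM or more were 22.2% and 19.4%. With a minimum mean of 5 TPM, 60.0% of the list's genes were wide (2-fold or more between samples), against 1.26% of all genes. Lcn2 encodes lipocalin-2, an iron-siderophore-binding protein that injured hepatocytes also make, and was at 61.4, 154 and 228 TPM. The granule proteins Ltf and Camp were at 2.88, 2.94 and 2.99 TPM and 1.76, 2.35 and 2.79 TPM. The azurophil granule genes Mpo, Elane and Ctsg were below 1 TPM in every sample, and the progenitor gene Ms4a3 was listed at 0 in all 3.

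Conventional dendritic cells gave a modest signal, with 13 of 14 genes at 1 TPM or more and a sum of 599.5, 615 and 539.5 TPM. Irf8 and Itgax, which monocytes and macrophages share, were its leading genes. Cd209a, a lectin of type 2 dendritic cells and monocyte-derived cells, was at 83.3, 83.3 and 64.1 TPM, and the growth factor receptor Flt3 was at 21.8, 17.6 and 14.1 TPM. Type 1 dendritic cell markers were lower, with the dead-cell receptor Clec9a at 7.39, 9.03 and 6.40 TPM and the chemokine receptor Xcr1 at 1.57, 1.26 and 1.57 TPM. Ccr7, which guides mature dendritic cells to lymph nodes, was at 2.91, 2.03 and 1.26 TPM. For plasmacytoid dendritic cells the sum was 507 ± 55.2 TPM, but 97.3% of it was the interferon-inducible gene Bst2, and the defining lectin Siglech was at 1.37, 1.07 and 1.03 TPM.

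Defining genes of eosinophils, basophils and mast cells were low or listed at 0. Ear2, a ribonuclease also known from monocytes and with close relatives in the genome, made up 98.1% of the eosinophil sum at 538, 746 and 690.4 TPM. The eosinophil granule genes Epx and Prg2 were listed at 0 in all samples, the receptor Ccr3 was at 3.23, 3.62 and 3.58 TPM and Siglecf at 7.55, 6.98 and 10.4 TPM. In the list for basophils and mast cells only the stem cell factor receptor Kit reached 1 TPM in all 3 samples, at 5.55, 4.69 and 3.15 TPM. The basophil protease Mcpt8 was at 0.197, 1.89 and 0.336 TPM and the mast cell protease Cpa3 at 0.603, 0.247 and 0 TPM.

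T and NK cell transcripts were close to 0. The T cell receptor component Cd3e was at 0, 0.148 and 0 TPM, Cd3d at 0.294, 0.297 and 0.359 TPM and the co-receptor Cd8a at 0.166, 0.237 and 0.176 TPM. Cd4 was somewhat higher at 5.81, 3.85 and 2.11 TPM. The 10 T cell genes summed to 9.17 ± 2.89 TPM (7.52 without PBS 1) and the 10 NK cell genes to 16.6 ± 1.63 TPM, with the granzyme Gzma at 7.50, 6.79 and 6.17 TPM and the receptor Ncr1 at 1.37, 0.925 and 1.08 TPM. Immunoglobulin genes stood out among the lymphocyte genes. The kappa constant region Igkc was at 167, 104 and 149 TPM and the mu heavy chain Ighm at 122, 120.2 and 118 TPM, while the B cell gene Ms4a1 was at 1.28, 0.625 and 0.538 TPM and the receptor chain Cd79a at 4.01, 1.97 and 1.90 TPM.

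Platelets and red cells left few markers. Pf4, a platelet chemokine that macrophages can also make, was at 197, 135 and 167 TPM, and Clec1b, the CLEC-2 receptor that Kupffer cells share with platelets, was at 122, 99.7 and 99.3 TPM. The platelet glycoproteins Gp9 and Gp5 were at 0, 0 and 0.107 TPM and 0.0569, 0.0742 and 0 TPM, and Ppbp was at 1.36, 0.366 and 1.81 TPM. The globin genes Hbb-bs and Hba-a1 were at 1.10, 0.436 and 0 TPM and 1.88, 1.11 and 1.24 TPM, and the 9 erythroid genes in the tables summed to 4.46 ± 1.95 TPM, or 3.34 without PBS 1.

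Hepatocyte transcripts were present at a low level. The 20 genes summed to 797, 698 and 766 TPM, or 0.0698% to 0.0797% of TPM, and 16 of them reached 1 TPM in all samples. Albumin, Alb, was at 135, 135 and 185 TPM and was highest in PBS 3. The transferrin gene Trf was at 237, 198 and 202 TPM and the glutamine synthetase gene Glul, which macrophages also express, at 234, 175 and 157 TPM. Apoa1 was at 27.6, 20.1 and 26.5 TPM and the transthyretin gene Ttr at 8.18, 7.71 and 12.5 TPM. Cyp2e1, the main enzyme that turns acetaminophen into its toxic metabolite, was at 0.929, 1.07 and 1.17 TPM, and the urea cycle enzyme Cps1 was at 0.409, 0.548 and 0.629 TPM.

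Endothelial genes formed the most complete of the non-myeloid sets, with 13 of 13 at 1 TPM or more and a sum of 683, 569.9 and 517 TPM. Stab1, a scavenger receptor that macrophages share, was at 177, 109 and 104 TPM. Its sinusoidal relative Stab2 was at 44.6, 36.1 and 26.5 TPM, the sinusoidal lectin Clec4g at 93.2, 91.7 and 86.5 TPM and the vascular cadherin Cdh5 at 101, 83.1 and 70.9 TPM. Gpr182, a receptor of sinusoidal endothelium, was at 45.7, 46.4 and 48.7 TPM and the VEGF receptor Kdr at 36.4, 33.5 and 30.2 TPM. PBS 3 was the lowest sample for 12 of the 13, where it was lowest in 50.7% of all genes at 1 TPM or more.

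Stellate cells, bile duct, mesothelium and pancreas contributed little. The collagen genes Col1a1 and Col3a1 were at 2.75, 0.491 and 0.775 TPM and 3.88, 0.665 and 1.10 TPM, and Lrat, the retinol-esterifying enzyme of quiescent stellate cells, at 0.280, 0.261 and 0.281 TPM. Ecm1, a matrix protein, made up 77.8% of the stellate list's sum at 116, 157 and 161 TPM. The bile duct markers Krt19 and Epcam were at 0.891, 0.884 and 1.74 TPM and 1.08, 1.51 and 0.989 TPM, and the mesothelial markers Msln and Wt1 were below 1 TPM. Of the 12 pancreatic acinar genes 9 were listed at 0 in every sample, among them Cpa1, Ctrb1 and Pnlip. Cela1, an elastase that other tissues also express, was at 13.6, 12.9 and 11.2 TPM and made up 98.3% of that list's sum.

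**Figure D2:**
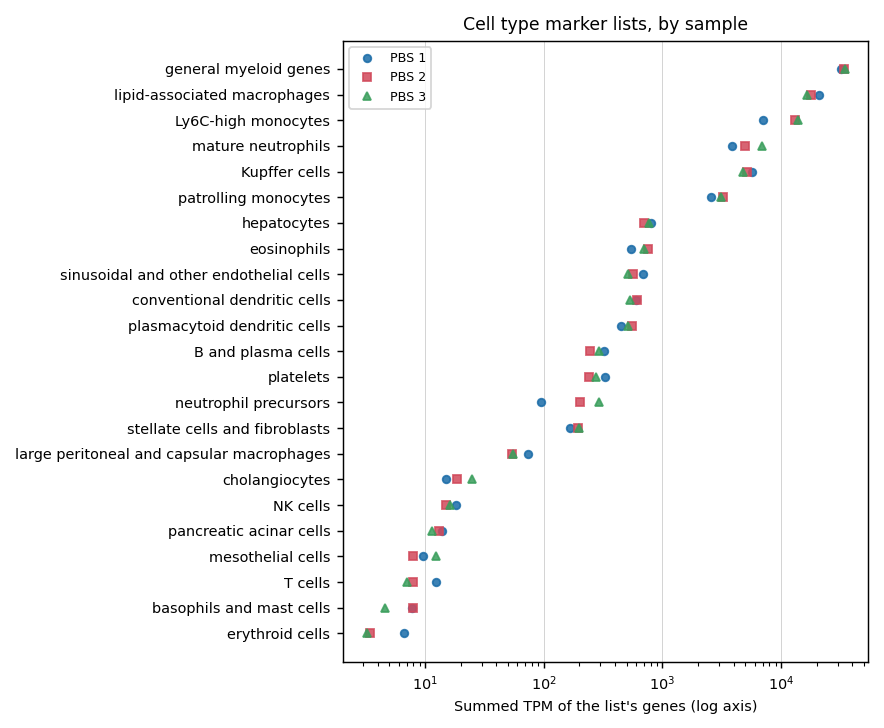
Summed TPM of the genes of each of the 23 cell type lists (log axis), 1 point per sample, in order of the mean over the samples. The general myeloid, lipid-associated macrophage and Ly6C-high monocyte lists lie at the top, followed by mature neutrophils and Kupffer cells, and Ly6C-high monocytes and mature neutrophils show PBS 1 below the other samples.

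Inflammatory cytokines were dominated by Il1b (chr2:129364569-129371164), the gene of interleukin-1 beta, which made up 81.0% of the sum of its list. It was at 1319, 1546 and 2158 TPM, highest in PBS 3. Its natural antagonist Il1rn was at 62.9, 63.9 and 77.7 TPM, so Il1b was 21.0, 24.2 and 27.8 times as abundant. Il1a was at 27.1, 27.0 and 32.6 TPM. The tumour necrosis factor gene Tnf was at 69.1, 74.5 and 91.2 TPM and the inflammasome substrate Il18 at 59.3, 81.8 and 70.0 TPM. Oncostatin M, Osm, a cytokine of the interleukin-6 family, was at 111, 136 and 185 TPM and was the next most abundant member after Il1b.

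Several well-known cytokines were barely detected. Il6 itself was at 1.08, 3.57 and 1.91 TPM and Il23a at 3.19, 3.49 and 4.98 TPM. Il12b was at 0.385, 0.265 and 0.424 TPM, and Il12a and the granulocyte-macrophage factor Csf2 were listed at 0 in all 3 samples. Interferon genes were low as well, with Ifnb1 at 0.0749, 0.0765 and 0 TPM and Ifng at 0.247, 0.269 and 0.209 TPM.

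Among regulatory cytokines and growth factors, the progranulin gene Grn led at 1760.0, 1669 and 1525 TPM. Transforming growth factor beta, Tgfb1, was at 315, 347 and 334 TPM and its induced matrix protein Tgfbi at 608, 858 and 858 TPM. The insulin-like growth factor Igf1 was at 83.5, 48.5 and 43.4 TPM, the hepatocyte growth factor Hgf at 26.0, 23.6 and 19.8 TPM and the stress cytokine Gdf15 at 68.1, 34.5 and 49.1 TPM. Each of those 3 genes was highest in PBS 1, as were 10 of the 16 genes of the list at 1 TPM or more and 57.1% of all genes, while the sum of the list was highest in PBS 2. Il10 was at 6.39, 5.04 and 5.38 TPM. The type 2 cytokines Il4 and Il13 were below 1 TPM, with Il13 listed at 0 in all samples. The sum of this list, 3292 ± 57.2 TPM, varied by only 1.03-fold.

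Chemokine ligands summed to 3688, 3894 and 4945 TPM. Ccl3 and Ccl4, inflammatory chemokines of macrophages, were at 945, 900.1 and 1132 TPM and 447, 445 and 556 TPM, and Ccl3 was 2.11, 2.02 and 2.04 times Ccl4. These neighbouring genes overlap in the annotation, so their division is uncertain. The neutrophil attractant Cxcl2 was at 579, 706 and 1043 TPM, whereas Cxcl1, which acts on the same receptor, was at 20.7, 9.53 and 21.8 TPM. The Ccr2 ligands Ccl2, Ccl7 and Ccl12 were at 272 ± 90.5, 116 ± 41.1 and 13.9 ± 5.95 TPM, and PBS 3 was highest for all 3. Ccl6 and Ccl9, chemokines of rodent myeloid cells, were at 825 ± 93.5 and 227 ± 31.7 TPM. The interferon-inducible ligands Cxcl9 and Cxcl10 were at 11.8, 16.6 and 6.61 TPM and 62.8, 145 and 106 TPM, highest in PBS 2.

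Chemokine and growth factor receptors were steadier. The sum was 6087 ± 243 TPM over 27 genes, 26 of them at 1 TPM or more in all samples. Ccr1, a receptor of Ccl3, was at 134, 168 and 231 TPM. Cxcr4, the receptor of Cxcl12, was at 342, 275 and 336 TPM. The decoy receptor Il1r2 was at 161, 162 and 199 TPM, against 2.24, 2.46 and 1.58 TPM for the signalling receptor Il1r1. The tumour necrosis factor receptors Tnfrsf1a and Tnfrsf1b were at 255, 287 and 280.0 TPM and 299.7, 364 and 341 TPM.

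**Figure D3:**
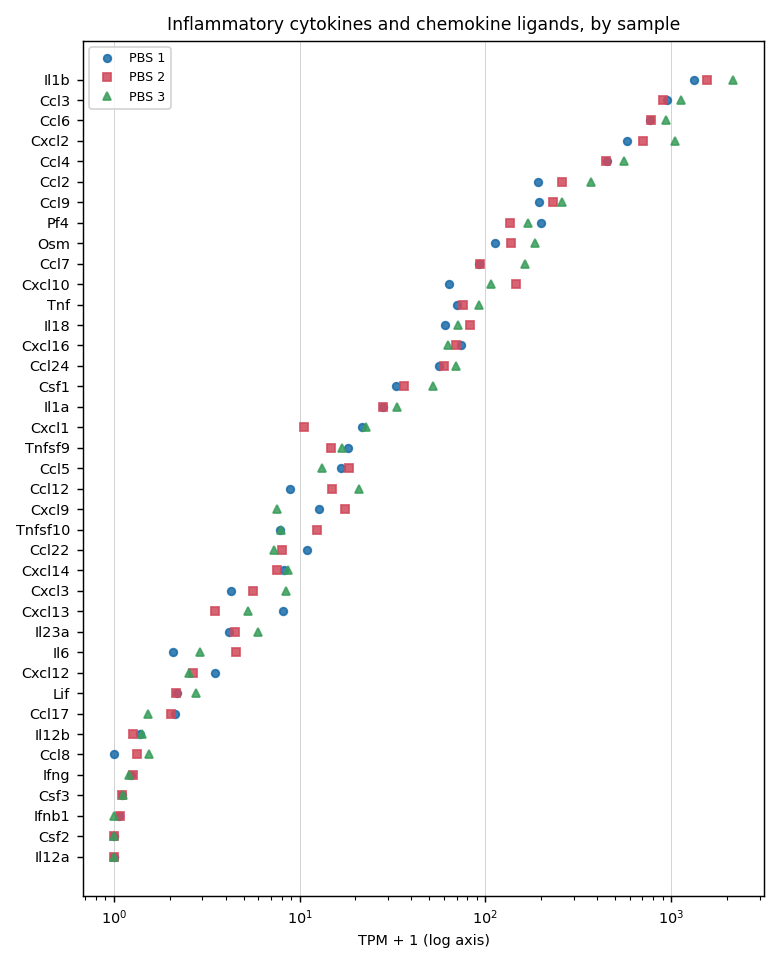
TPM + 1 in each sample (log axis) for the inflammatory cytokines and chemokine ligands of the lists, in order of the mean, 1 point per sample. Il1b is highest, Ccl3, Ccl6 and Cxcl2 follow, and Il12a and Csf2 lie at 0 TPM in all samples.

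Pattern recognition and scavenger receptors were all detected, 26 of 26, with a sum of 3999.6 ± 142 TPM. Clec7a, the beta-glucan receptor dectin-1, led at 497, 592 and 563 TPM, followed by the scavenger receptor Msr1 at 404, 361 and 371 TPM. The endosomal receptors Tlr13 and Tlr7, which sense bacterial ribosomal RNA and single-stranded RNA, were at 203, 215 and 219.7 TPM and 136, 188 and 167 TPM. The surface receptors Tlr2 and Tlr4 were at 144, 151 and 149.9 TPM and 51.6, 43.8 and 42.5 TPM. Tlr9, the sensor of unmethylated DNA, was at 54.2, 97.5 and 58.2 TPM, highest in PBS 2. The inflammasome sensor Nlrp3 was at 91.2, 96.3 and 105 TPM. The formyl peptide receptors Fpr1 and Fpr2 were at 69.9, 73.6 and 79.6 TPM and 54.2, 87.3 and 97.3 TPM.

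Complement and clearance genes were abundant. The 3 chains of C1q, which opsonises dying cells, were at 1249, 1062 and 973 TPM for C1qa, 1901, 1579.8 and 1508 TPM for C1qb and 1529, 1323 and 1198 TPM for C1qc. They kept nearly constant proportions, with C1qa over C1qb at 0.657, 0.672 and 0.645. The anaphylatoxin receptors C5ar1 and C3ar1 were at 263, 281 and 339 TPM and 223, 186 and 178 TPM. Factor B, Cfb, an interferon-inducible protease of the alternative pathway, was at 58.6, 144 and 97.9 TPM, highest in PBS 2, and its stabiliser properdin, Cfp, was at 466, 409 and 422 TPM.

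Among receptors for dead cells, Axl was at 481, 571 and 374 TPM and its relative Mertk at 103, 80.3 and 67.5 TPM, a ratio of 4.68, 7.11 and 5.54. The third member of that kinase family, Tyro3, was at 0.0806, 0.0889 and 0.106 TPM. Their bridging ligands Gas6 and Pros1 were at 68.3, 34.1 and 37.6 TPM and 41.7, 36.9 and 35.4 TPM, and the integrin ligand Mfge8 was at 11.9 ± 0.449 TPM. Lrp1, an endocytic receptor that recognises calreticulin on dying cells, was at 459, 418 and 289 TPM, and Abca1, which exports the cholesterol taken up, was at 104, 69.7 and 49.4 TPM. PBS 1 was the highest sample for 15 and PBS 3 the lowest for 17 of the 23 clearance genes at 1 TPM or more, where 57.1% and 50.7% of all genes had those orders.

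The inhibitory receptor Sirpa, which recognises the don't-eat-me protein Cd47, was at 768, 783 and 703 TPM. Cd47 was at 90.8, 105 and 92.7 TPM, so Sirpa was 8.45, 7.48 and 7.58 times as abundant. The phosphatase Ptpn6, which Sirpa recruits, was at 632, 773 and 767 TPM. The paired relatives Sirpb1a, Sirpb1b and Sirpb1c were at 144 ± 19.4, 232 ± 48.6 and 319 ± 59.0 TPM. These genes are close copies, and reads may have been divided among them. Lilrb4a, another inhibitory receptor, was the most abundant of the group and the steadiest, at 1176, 1128 and 1162 TPM.

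Fc receptors for IgG were led by the low-affinity activating receptor Fcgr3 at 636, 693 and 724 TPM. The high-affinity receptor Fcgr1 was at 305, 439 and 398 TPM and Fcgr4, which is typical of patrolling monocytes and neutrophils, at 281, 514 and 471 TPM. The inhibitory Fcgr2b was at 342, 407 and 377 TPM, and Fcgr3 was 1.86, 1.70 and 1.92 times its level. The IgE receptor chain Fcer1a was at 0.0962, 0 and 0.0729 TPM.

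MHC class II genes were high. The chains H2-Aa, H2-Ab1 and H2-Eb1 were at 1441, 1280.3 and 998 TPM, 1261, 1114 and 884 TPM and 811, 689 and 558 TPM, in each case highest in PBS 1 and lowest in PBS 3. Ciita, the coactivator that switches these genes on, followed the same order at 29.1, 26.8 and 19.0 TPM. The costimulatory genes Cd86 and Cd80 were at 66.1, 76.3 and 65.1 TPM and 25.6, 26.9 and 31.2 TPM. H2-DMa was read at 44.6, 129.8 and 42.2 TPM, while H2-DMb1, which encodes its partner chain, was level at 157, 156 and 140.2 TPM. H2-DMa overlaps Brd2 in the annotation, so its value is uncertain.

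Lysosomal genes were present in full, 27 of 27, with a sum of 30776 ± 1557 TPM or 2.92% to 3.23% of all TPM. Beyond the cathepsins and Psap, legumain, Lgmn, was at 2202, 1999.9 and 1854 TPM and the membrane proteins Cd68 and Lamp1 at 1981 ± 203 and 1328 ± 45.1 TPM. Lysosomal acid lipase, Lipa, was at 644, 521 and 460.2 TPM, and the transcription factors of lysosomal biogenesis Tfeb and Tfe3 were at 65.7 ± 4.05 and 67.5 ± 2.03 TPM. Atp6v0d2, a proton pump subunit of specialised macrophages, was at 9.59, 2.91 and 3.07 TPM, highest in PBS 1. Ctsk, the osteoclast cathepsin, was at 6.08, 4.40 and 4.11 TPM.

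Iron handling was led by the ferritins. Slc11a1, which pumps metal ions out of phagosomes, was at 329, 359 and 377 TPM, the heme catabolism enzyme Blvrb at 179, 169 and 159 TPM and the hemoglobin-haptoglobin receptor Cd163 at 89.6, 89.2 and 72.1 TPM. The transferrin receptor Tfrc was at 24.5, 25.3 and 23.9 TPM.

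Genes tied to alternative activation and matrix were mixed. The inducible nitric oxide synthase gene Nos2, a product of classical activation, was at 0.139, 0.338 and 0.248 TPM. Mrc1, the mannose receptor, was at 117, 88.7 and 69.8 TPM, and Retnla, a resistin-like product of alternatively activated macrophages, at 3.58, 0.324 and 3.17 TPM. The plasminogen activator Plau and its receptor Plaur were at 167, 159.6 and 156 TPM and 158, 174 and 207 TPM. Mmp14, a membrane-bound collagenase, was at 37.6, 32.8 and 28.0 TPM and Mmp13 at 6.50, 11.1 and 11.3 TPM. The protease inhibitor Timp2 was at 63.5, 38.0 and 35.2 TPM, against 0.739, 0.466 and 0.847 TPM for Timp1.

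The phagocyte oxidase was well expressed. Its membrane subunits Cybb and Cyba were at 729.8, 953 and 730.3 TPM and 1012, 994 and 1081 TPM, and the cytosolic subunits Ncf1 and Ncf4 were at 347 ± 31.7 and 223 ± 29.6 TPM. The antioxidant enzymes Gpx1 and Prdx1 were at 1489, 1713 and 1747 TPM and 917, 798 and 845 TPM. Nfe2l2, the transcription factor NRF2, was at 308, 328 and 349 TPM. Of its well-known targets, Txnrd1 was at 109 ± 7.68 TPM, Gclc at 32.8 ± 4.65 TPM and Nqo1 at 1.44 ± 0.0820 TPM. Another target, Hmox1, whose values are given above, was higher than these. The list of glycolysis and hypoxia genes held 22 genes, 20 of them with a mean of at least 20 TPM. The median highest-to-lowest ratio of those 20 was 1.16, close to the 1.14 of all genes at that level. Pkm, a pyruvate kinase, led the list at 1120.4, 1192 and 1299 TPM. The hexokinases Hk3, Hk2 and Hk1 were at 124 ± 6.07, 57.6 ± 4.09 and 43.3 ± 1.80 TPM.

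Transcription factors of the myeloid line summed to 4838, 4880.3 and 4906 TPM and differed by 1.01-fold, the least of the 43 lists. Cebpb, which drives inflammatory and monocyte genes, was at 288, 342 and 364 TPM, and Maf, which restrains macrophage self-renewal, was at 216, 204 and 193 TPM. Irf5 and Irf8 were at 399.7 ± 26.5 and 202 ± 13.3 TPM. Nr1h3, the liver X receptor alpha required for Kupffer cell identity, was at 148, 134 and 117 TPM. Gfi1, a factor of granulocyte development, was at 0.181, 0.101 and 0.167 TPM.

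Immediate early genes were strongly expressed. Fos was at 1284, 1421 and 1611 TPM, Junb at 822, 956 and 1056 TPM and the phosphatase Dusp1 at 888, 881 and 1065 TPM. Atf3, a stress-induced repressor, was at 718, 667 and 758 TPM and Egr1 at 234, 312 and 350.3 TPM. The inducible heat shock genes Hspa1a and Hspa1b were at 606, 480.2 and 293 TPM and 609, 512 and 305 TPM, highest in PBS 1 and lowest in PBS 3. They are nearly identical copies, so the split between them is uncertain.

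Spread between the samples was small for most genes. Among the 6315 genes with a mean of at least 20 TPM, the median ratio of the highest to the lowest sample on the TPM + 1 scale was 1.14 and the 90th percentile was 1.38. A wide spread, 2-fold or more, was seen in 50 genes, or 0.792%. PBS 1 was the lowest sample in 31 of these 50 and the highest in 16. Over all genes at 1 TPM or more it was lowest in 22.2% and highest in 57.1%. The share of wide genes was 0.0643% when only PBS 2 and PBS 3 were compared. It was 0.489% without PBS 2 and 0.515% without PBS 3. The coefficient of variation had a median of 19.0% for genes with a mean of 1 to 5 TPM, 10.9% for 5 to 20 TPM, 7.32% for 20 to 100 TPM and 6.50% at 1000 TPM or more. The most common ratio of coverage to FPKM, which grows with the number of reads, was 5.28, 6.06 and 6.32, lowest in PBS 1, and its part in the spread was not tested.

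The widest gene was Lcn2, whose values are given above, with a ratio of 3.66. Ly6a2, a gene of the Ly6 family, was at 67.6, 154 and 219.8 TPM, a ratio of 3.22. Retnlg had a ratio of 3.13, and Gpnmb one of 2.79 in the other direction, with PBS 1 highest. Syngr1, a vesicle membrane protein, was at 44.4, 13.7 and 20.7 TPM and the mitotic ubiquitin-conjugating enzyme Ube2c at 35.6, 19.6 and 11.9 TPM, both highest in PBS 1. Ifit1bl1, which overlaps other Ifit genes, was at 23.0, 75.9 and 43.4 TPM, and Mir7678, which overlaps the antiprotease gene Slpi, was at 13.6, 24.5 and 38.7 TPM. Slfn4, an interferon-inducible gene of myeloid cells, was at 314, 729 and 814 TPM and was among the 5 genes farthest below the other samples in PBS 1. Rgs1, a regulator of chemokine receptor signalling, was at 1336, 692 and 1004 TPM, and Dpm1, which overlaps another gene model, at 16.2, 32.2 and 11.6 TPM. Chp2, a calcineurin-like calcium-binding protein, was at 38.0, 20.5 and 14.4 TPM, and G0s2, an inhibitor of the lipase that degrades lipid droplets, was at 185, 217 and 356 TPM.

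**Figure D4:**
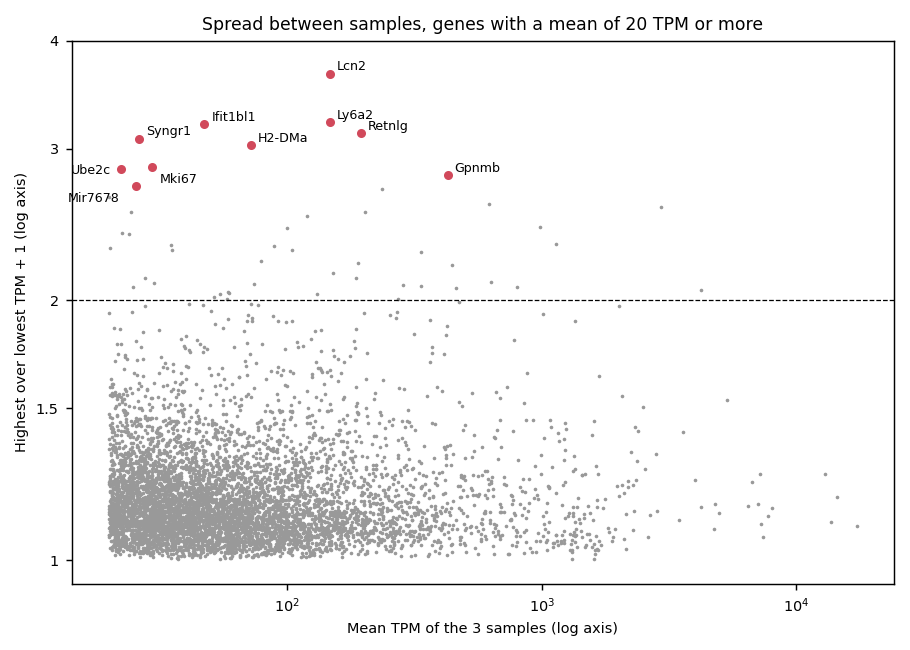
Ratio of the highest to the lowest sample (TPM + 1, log axis) against the mean TPM (log axis) for the 6315 genes with a mean of at least 20 TPM, 1 point per gene. The dashed line marks 2-fold, the 10 widest genes are named and in red, and Lcn2 has the largest ratio at 3.66.

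Wide genes made up 0.792% of all genes with a mean of at least 20 TPM. Of the 14 Ly6C-high monocyte genes 5 were wide, among them Chil3, Plac8, Ly6c2 and Ms4a4c, and all 14 were lowest in PBS 1, where 22.2% of all genes at 1 TPM or more were. Of the 16 lipid-associated genes 4 were wide, namely Spp1, Gpnmb, Cd36 and Fabp5. The median deviation of the gene in PBS 1 from its own mean on the log2(TPM + 1) scale was -0.35 for the Ly6C-high monocyte genes and 0.31 for the lipid-associated genes. For the neutrophil genes it was -0.35 in PBS 1 and 0.36 in PBS 3, and for the Kupffer genes 0.15 in PBS 1 and -0.18 in PBS 3. Of the Kupffer and patrolling monocyte genes with a mean of at least 20 TPM, 14 and 12 in number, none was wide. With FPKM in place of TPM, 7.69% of the Kupffer genes were wide and still none of the patrolling monocyte genes. The share with FPKM was 18.75% for the lipid-associated genes, against 25.0% with TPM. For the Ly6C-high monocyte genes it was 42.9%, against 35.7% with TPM. Other lists moved more. For the mature neutrophil genes the share was 30.8% with FPKM, against 7.69% with TPM. It was 23.1% with the samples scaled by the median of their gene ratios. Of the 15 cell cycle genes with a mean of at least 20 TPM, 3 were wide with TPM, and no gene of that list was wide with FPKM. PBS 1 was the highest sample for 57.1% of all genes at 1 TPM or more, so a count of genes highest in PBS 1 reads against that share. With the samples scaled by the median of their gene ratios that share was 47.7%. The other shares over all genes moved as well under that scaling. PBS 1 was then lowest in 29.7%, against 22.2% with TPM. PBS 3 was highest in 27.6% and lowest in 41.2%, against 19.4% and 50.7% with TPM.

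**Figure D5:**
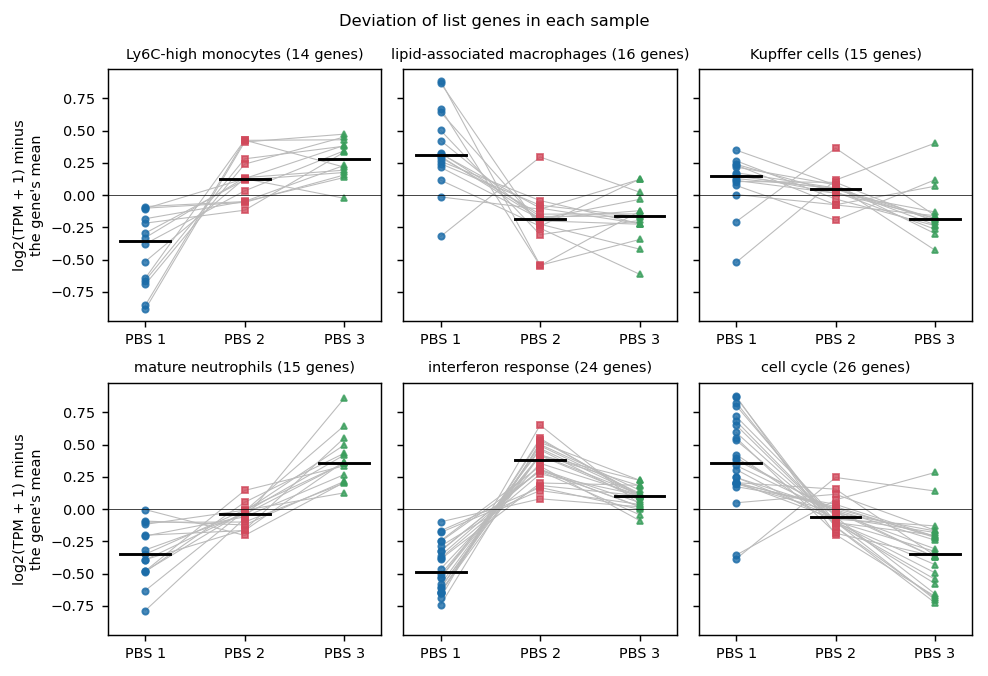
Deviation of each gene in each sample from the gene's own mean over the 3 samples (log2 of TPM + 1) for 6 lists, 1 point per gene and sample, with grey lines joining the values of a gene and black bars at the list median. PBS 1 lies low for Ly6C-high monocyte, neutrophil and interferon genes and high for lipid-associated and cell cycle genes, and the interferon genes peak in PBS 2.

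Interferon-response genes had a single order of the samples. Their 24 genes summed to 5806, 9627 and 8391 TPM, a mean of 7941 ± 1950.1, which was 9009 without PBS 1. All 24 were highest in PBS 2 and lowest in PBS 1, an order that 11.1% of all genes at 1 TPM or more had. The lists were chosen with earlier results of these data known, so this count and those of the other lists are descriptions and no test. With median-of-ratios scaling 23 of the 24 were still highest in PBS 2. The membrane protein Ifitm3, which blocks virus entry, was at 1879, 2829 and 2795 TPM. Irf7, the factor that amplifies interferon production, was at 511, 1061 and 828 TPM, and the ubiquitin-like protein Isg15 was at 205, 427 and 373 TPM.

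Antiviral effectors shared this order. Ifit2 and Ifit3, of a family that acts against viral RNA, were at 117, 297 and 194 TPM and 203, 463 and 345 TPM, and Ifit1 was at 47.6, 107 and 83.3 TPM. Rsad2, the radical enzyme viperin, was at 93.7, 203 and 157 TPM and Oasl1 at 82.4, 169 and 143 TPM. The signal transducers named here ranged less, with Stat2 at 123, 185 and 138 TPM and Irf9 at 113, 128 and 122 TPM. Of the 24 genes 9 were wide, against 0.792% of all genes with a mean of at least 20 TPM. Ifit1 overlaps Ifit1bl1 and Cxcl10 overlaps Art3 in the annotation, so these values carry some uncertainty.

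The promoters of interferon-inducible genes often hold an interferon-stimulated response element, the site bound by a complex that holds Stat2 and Irf9, and the windows of 4 genes of the list are shown because the genes moved together between the samples. They are the RefSeq sequences of build GRCm38.p6, 250 bases before to 50 after the start, each read on the strand of its gene. Capitals mark every match, on either strand, to the core motif of GAAA, any 2 bases and GAAA, which reads TTTC, any 2 bases and TTTC when it lies on the other strand.
Isg15, chr4:156200769-156201068, minus strand: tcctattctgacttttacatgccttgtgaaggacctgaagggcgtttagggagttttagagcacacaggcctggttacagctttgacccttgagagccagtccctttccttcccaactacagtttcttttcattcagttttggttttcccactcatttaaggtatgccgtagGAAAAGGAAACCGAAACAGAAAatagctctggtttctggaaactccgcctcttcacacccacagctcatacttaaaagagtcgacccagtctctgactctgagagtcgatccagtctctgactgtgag
Ifit1, chr19:34640639-34640938, plus strand: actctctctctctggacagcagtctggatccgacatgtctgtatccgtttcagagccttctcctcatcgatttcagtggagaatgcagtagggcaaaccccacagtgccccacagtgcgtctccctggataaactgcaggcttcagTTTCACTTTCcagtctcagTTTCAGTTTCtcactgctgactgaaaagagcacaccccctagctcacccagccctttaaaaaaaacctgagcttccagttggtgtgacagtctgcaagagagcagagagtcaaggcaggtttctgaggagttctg
Rsad2, chr12:26456403-26456702, minus strand: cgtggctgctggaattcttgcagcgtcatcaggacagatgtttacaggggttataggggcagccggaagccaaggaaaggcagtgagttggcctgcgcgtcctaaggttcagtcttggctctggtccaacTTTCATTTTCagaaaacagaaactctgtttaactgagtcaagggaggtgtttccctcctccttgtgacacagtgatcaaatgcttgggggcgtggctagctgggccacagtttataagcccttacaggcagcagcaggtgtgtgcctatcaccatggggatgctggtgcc
Cxcl10, chr5:92348840-92349139, minus strand: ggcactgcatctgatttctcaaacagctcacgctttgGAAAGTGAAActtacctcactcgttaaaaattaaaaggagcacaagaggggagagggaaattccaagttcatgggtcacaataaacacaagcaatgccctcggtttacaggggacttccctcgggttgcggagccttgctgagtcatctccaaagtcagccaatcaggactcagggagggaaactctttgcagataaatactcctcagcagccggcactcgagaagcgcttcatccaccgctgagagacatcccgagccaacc
Isg15 held 3 matches that overlap each other, starting at -78, -72 and -66 from the start site. Ifit1 held matches at -104 and -85, Rsad2 at -120 and Cxcl10 at -213. A window was listed for 18 of the 24 genes, and 11 of them (61.1%) held at least 1 match. The share was 3.99% over all 27025 genes with a window and 4.12% over the 9377 of them at 1 TPM or more in all samples. A match is a description of letters only, and binding was not measured here.

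Cell cycle genes had another order. The 26 genes summed to 2035, 1679 and 1520.1 TPM, a mean of 1744 ± 263, which was 1599 without PBS 1. PBS 1 was highest in 23 and PBS 3 lowest in 24 of them, where 57.1% and 50.7% of all genes had these orders. The proliferation antigen Mki67 was at 48.2, 24.2 and 16.2 TPM and the topoisomerase Top2a at 52.7, 30.8 and 22.5 TPM. The mitotic cyclins Ccnb1 and Ccnb2 were at 15.3, 6.76 and 4.57 TPM and 16.8, 7.88 and 4.91 TPM, and the mitotic kinase Plk1 was at 17.5, 8.88 and 5.51 TPM.

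The replication genes of the list ranged less than the mitotic genes named above. The sliding clamp Pcna was at 431, 353 and 340.3 TPM and the helicase subunits Mcm6 and Mcm5 at 104, 91.1 and 77.1 TPM and 76.1, 63.8 and 54.0 TPM. The ribonucleotide reductase subunit Rrm2 was at 48.9, 37.6 and 30.9 TPM. The D-type cyclins, which respond to growth factors, were not highest in PBS 1. Ccnd3 was at 108, 146 and 169 TPM and Ccnd2 at 16.2, 25.7 and 23.8 TPM, both lowest in PBS 1, while Ccnd1 was at 139.7, 146 and 120.3 TPM, lowest in PBS 3.

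Promoters of mitotic genes often carry CCAAT boxes and a cell cycle homology region, and the windows of Ccnb2 and Plk1, which had the same order of samples, are shown from the same RefSeq table. Capitals mark CCAAT and TTTGAA on either strand, letters that do not overlap each other in these windows.
Ccnb2, chr9:70421505-70421804, minus strand: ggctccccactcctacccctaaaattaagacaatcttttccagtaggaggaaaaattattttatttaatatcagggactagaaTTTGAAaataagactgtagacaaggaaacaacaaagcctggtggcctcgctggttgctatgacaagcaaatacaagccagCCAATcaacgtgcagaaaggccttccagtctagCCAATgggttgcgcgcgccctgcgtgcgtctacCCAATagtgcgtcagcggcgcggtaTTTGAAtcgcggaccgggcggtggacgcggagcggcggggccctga
Plk1, chr7:122159185-122159484, plus strand: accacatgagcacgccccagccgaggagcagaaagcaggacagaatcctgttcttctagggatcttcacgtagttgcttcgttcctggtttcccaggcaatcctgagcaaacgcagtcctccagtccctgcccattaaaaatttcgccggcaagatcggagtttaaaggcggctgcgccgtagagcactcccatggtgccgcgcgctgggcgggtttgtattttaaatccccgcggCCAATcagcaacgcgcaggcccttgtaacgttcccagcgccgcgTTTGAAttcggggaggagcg
In Ccnb2, CCAAT began at -87, -54 and -21 and TTTGAA at -167 and 4. In Plk1, CCAAT began at -14 and TTTGAA at 30. Of 19 cell cycle genes with a window, 16 (84.2%) held CCAAT and 8 (42.1%) held TTTGAA. The shares over all genes with a window were 41.1% and 20.2%, and over those at 1 TPM or more they were 43.2% and 14.8%. The interferon motif was in 0 of the 19 cell cycle genes, while 7 of the 18 interferon genes held CCAAT and 1 held TTTGAA.

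Related genes ranged from close levels, as in the C1q chains above, to very different ones. The gut lysozyme Lyz1 was at 142, 138 and 131 TPM, or 0.00793 of the mean of Lyz2. Chil4 was at 34.6, 69.3 and 71.8 TPM, and Chil3 was 73.4, 70.5 and 72.7 times as abundant. Reads may have been divided between such close copies, which was not tested. Ifitm2 was at 816, 1080.5 and 1077 TPM, between 0.382 and 0.435 of Ifitm3.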

How the data were processed

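Bulk RNA sequencing of CD11b+ mouse liver cells was used from 3 samples, grouped by the title and treatment in their labels. Per the labels' protocols, RNA was extracted with Trizol, DNA was removed with DNase and libraries were made with a stranded TruSeq mRNA kit. HISAT2 2.1.0, StringTie and the build mm10 are named per the submitters' processing notes, without their settings. The annotation, and whether reads were assigned by strand, are not given in the sources used here.

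Per the file headers, the table of a sample gives the position of each gene with its coverage, FPKM and TPM. FPKM and TPM are the authors' deposited values, and deposited TPM sum to 1000000 per sample. Deposited coverage was used only for its ratio to FPKM, taken as the most common value among genes above 10 FPKM (30.2% to 31.0% of them had it). Since read counts were not used here, sequencing depth is unknown and values carry no counting interval.

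Gene names were blank and symbols were looked up by gene ID in RefSeq GRCm38.p6, which gave 45679 of 45777 (99.8%) a symbol, and start and end were the same for 96.4% of these. Rows of a gene ID were summed. Means and SDs are over 3 samples on TPM. Spread is the ratio of the highest to the lowest TPM + 1 for genes with a mean of at least 20 TPM, and wide means 2-fold or more. Overlaps are with annotated genes whose mean is at least 1 TPM, on either strand. Motifs were searched on both strands of the RefSeq windows.

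The genes named were the 30 nuclear genes of highest mean (predicted genes and Riken clones left out), the members of 23 cell type and 20 function lists (607 genes, 605 of them in the tables, 76 in more than 1 list), the 10 widest genes, the 5 farthest above and below the other samples in each sample, and 15 pairs of related genes. Some genes of the lists are not reported here. Members and lists were chosen with earlier results of these data known. The calculation of spread was checked on simulated data. Alternatives were leaving out each sample, FPKM, median-of-ratios scaling, other minima and pseudocounts, the largest row of each gene ID and removal of mitochondrial genes. The effect of scaling on the order of samples in the lists was added after the data were seen. The 1.3-fold limit for calling a pair of samples close was set after the values were seen, in place of narrower limits that gave lower shares for every pair and the same order of the pairs. Python 3.11.15 with numpy 2.4.6, pandas 2.3.3 and matplotlib 3.10.9 was used.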

Additional observations from a re-analysis of the deposited data

How the results depend on the processing

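The share of wide genes, 0.792% as reported, was between 0.0643% (without PBS 1) and 0.515% (without PBS 3) when a sample was left out, and 0.489% without PBS 2. A range over fewer samples is smaller by construction. The share was 1.26% with a minimum mean of 5 TPM and 1.16% with FPKM, and it was between 0.769% and 0.972% with mitochondrial genes removed, median-of-ratios scaling, a pseudocount of 0.1 or no minimum. The 100 most abundant genes took 29.9% of mean TPM, and 27.4% once mitochondrial genes were removed and TPM rescaled. The number of genes at 1 TPM or more in all samples, 12770, was 13942 at a threshold of 0.5 TPM and 9836 at 5 TPM. With 3 samples, leaving out 1 cannot move the mean of a list sum by more than its SD, so that comparison says nothing about stability. Leaving out the most abundant member moved 42 of the 43 list sums by more than their SD over the samples. The highest and the lowest sample of a list sum were kept in 39 of 43 lists with median-of-ratios scaling, 41 with mitochondrial genes removed and 28 with FPKM. The hepatocyte, Fc receptor, MHC class II and SIRP sums changed their highest sample with median-of-ratios scaling. With FPKM the lowest sample of the Kupffer, lipid-associated, complement, lysosomal and erythroid sums was PBS 2 in place of PBS 3, and the highest sample of the patrolling monocyte sum was PBS 3 in place of PBS 2. The other 9 lists that changed with FPKM, among them MHC class II and hepatocytes, changed their highest sample. No paired analysis was possible because only 1 group was described. Without read counts, values near 0 TPM carry an unknown counting error, and whether reads were counted by strand is not given, so overlapping genes stay uncertain.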

Other observations

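Non-coding transcripts held little of the RNA, with 0.521% to 0.533% of TPM in long non-coding RNA genes and 1.86% to 2.05% in pseudogenes. The most abundant long non-coding gene was Gm36161 at 391, 438 and 519 TPM, followed by the nuclear RNA Malat1 at 307, 309 and 282 TPM. Gas5, a host of small nucleolar RNAs, was at 213, 194 and 198 TPM, and Neat1, the scaffold of nuclear paraspeckles, was at 140.1, 155 and 183 TPM. Among pseudogenes, the ribosomal RNA entry Rn18s-rs5 was at 1197, 986 and 1027 TPM and the ferritin pseudogene Ftl1-ps1 at 645, 515 and 527 TPM, with PBS 1 highest for both, as for Ftl1 itself. The most abundant gene ID without a symbol in the RefSeq table, 108169013 at chr4:134159786-134164375, was at 634, 655 and 516 TPM. These genes were given by their level alone.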
